A study of Mus musculus with 6 samples.

Results

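The gene described here is Tbx3, as measured in α6-integrin-positive basal cells of mouse epidermis by all the probe sets that the array's annotation assigns to Tbx3 and to no other gene. It is 1 of 18193 genes with a probe set of their own, and it has 5 of the 45101 probe sets on the array, of which 3 were called present on at least 1 of the 6 arrays. The cells came from female C57BL/6 mice, which the sample labels give as 10 weeks old, and no transgene or deleted allele is named for any of them. Epidermal cells were released from the skin by enzyme digestion, and living ones, which exclude propidium iodide, were sorted for surface α6-integrin, the laminin receptor of basal cells. The 3 groups, with 2 arrays each, were ventral skin of virgin mice (virgin ventral), dorsal skin of pregnant mice 16 days post coitum (16 dpc dorsal) and ventral skin on the same day (16 dpc ventral). The headers inside the files name another day close to 16 dpc, and here the labels were followed. Cells of virgin dorsal skin were not analysed here, so site and pregnancy differ together between 16 dpc dorsal and virgin ventral cells. The series' design text says that the experiment was repeated and no label ties an array to single animals, so the errors given measure the spread between these arrays only.

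Tbx3 encodes a T-box transcription factor, which binds DNA through its T-box domain and acts mostly as a repressor of its targets. It is required in the embryo for the mammary placodes, which form along a line on the ventral flank, and human mutations of the gene cause ulnar-mammary syndrome. It is also known as a repressor of cell-cycle inhibitors and of E-cadherin. The question behind the arrays was which genes stand higher in the ventral basal layer late in pregnancy, when the skin of the belly expands. The authors drew Tbx3 from a set of candidates that they selected on these same arrays by a level in 16 dpc ventral cells more than 2-fold above each other group, and chose it among them by further work. Its level in 16 dpc ventral cells is therefore given as a description with no test, and only 16 dpc dorsal against virgin ventral cells was tested.

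Tbx3 lay lowest in 16 dpc dorsal cells, in between in virgin ventral cells and highest in 16 dpc ventral cells, with no overlap between the arrays of any pair of groups. The probe set 1437479_x_at, which has the highest mean level and stands for the gene, read 613 and 534 in virgin ventral cells, in MAS5 signal, a linear intensity that the authors scaled to the same trimmed mean on every array. It read 60.6 and 16.0 in 16 dpc dorsal cells. It read 1593 and 1164 in 16 dpc ventral cells. All 4 ventral arrays called it present, that is, above the mismatch probes by the MAS5 detection test, while 1 dorsal array called it marginal and the other absent. The mean of virgin ventral cells was 573 ± 55.6 (SD, n = 2), that of 16 dpc dorsal cells 38.3 ± 31.5 and that of 16 dpc ventral cells 1379 ± 303. The lowest 16 dpc ventral array was 1.90-fold above the highest virgin ventral array, and the lowest virgin ventral array was 8.81-fold above the highest dorsal one. Within a group, the higher array exceeded the lower 1.15-fold in virgin ventral, 1.37-fold in 16 dpc ventral and 3.79-fold in 16 dpc dorsal cells, where the signal was not called present.

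A further probe set, 1448029_at, gave the same order. It read 612 and 453 in virgin ventral cells, 19.9 and 34.8 in 16 dpc dorsal cells, and 1429 and 992 in 16 dpc ventral cells. All ventral arrays called it present and both dorsal arrays absent. The lowest 16 dpc ventral array stood 1.62-fold above the highest virgin ventral array. The lowest virgin ventral array stood 13.0-fold above the highest dorsal array. In dorsal cells the higher reading came from replicate 1 with the first probe set and from replicate 2 with this one, so the dorsal arrays have no settled order.

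The other 3 probe sets read low. With 1445757_at the virgin ventral arrays read 31.1 and 42.9, the dorsal arrays 1.15 and 1.41, and the 16 dpc ventral arrays 77.0 and 14.8, and only the first 16 dpc ventral array called it present. Its dorsal arrays lay below all ventral arrays, as with both strong probe sets, but its 16 dpc ventral arrays lay on either side of the virgin ventral ones. The probe set 1439567_at was absent on every array. It read 39.6 and 59.0 in virgin ventral, 3.02 and 16.2 in 16 dpc dorsal, and 2.61 and 38.6 in 16 dpc ventral cells, which puts the 16 dpc ventral arrays below the virgin ventral ones. The probe set 1444594_at was absent throughout and read between 1.90 and 4.58. Probe sets differ in their affinity for RNA, so their levels are not compared with each other, and the position of each on the transcript was not looked up here. The difference between virgin and 16 dpc ventral cells therefore rests on the 2 probe sets called present on all 4 ventral arrays.

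**Figure D1:**
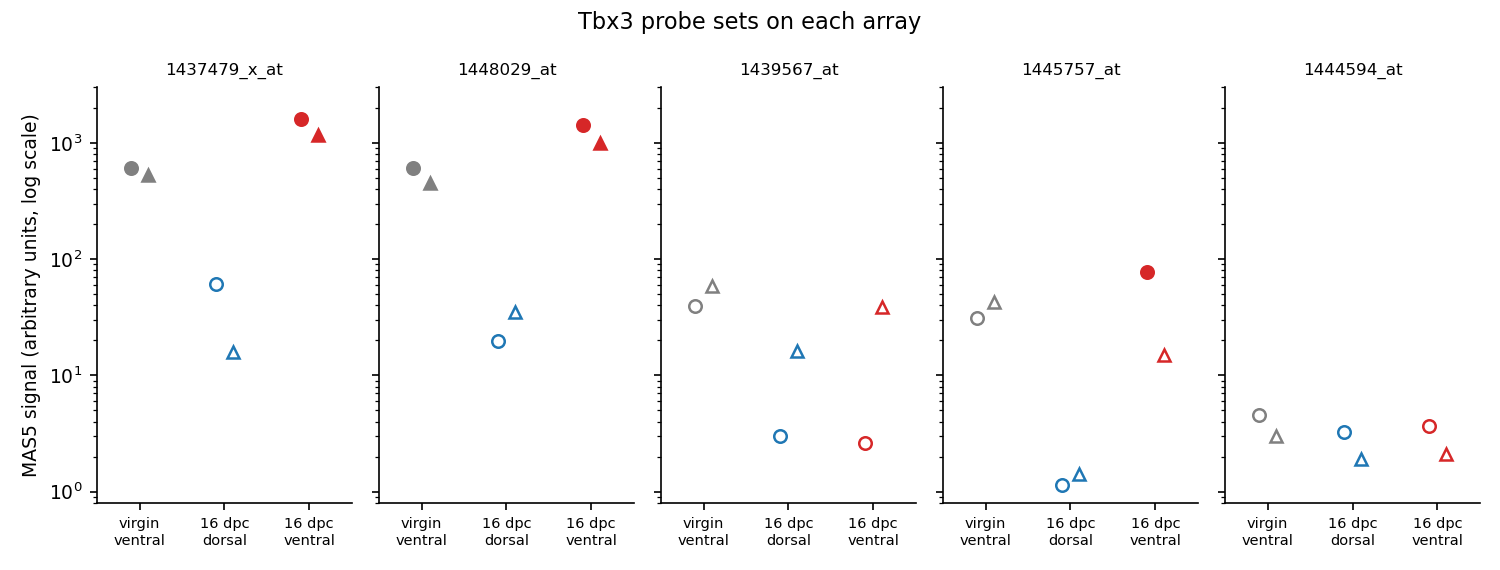
MAS5 signal (log scale) of the 5 Tbx3 probe sets on each of the 6 arrays; circles are replicate 1, triangles replicate 2, filled symbols are called present and open ones marginal or absent. With 1437479_x_at and 1448029_at the dorsal arrays sit between 16.0 and 60.6 and the 16 dpc ventral arrays between 992 and 1593, with the virgin ventral arrays in between.

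Between 16 dpc ventral and virgin ventral cells, the site being the same, Tbx3 differed by a log2 fold change of 1.25 ± 0.52 (SE of the limma fit), which is 2.38-fold. The fit pools the spread of all 3 groups, the dorsal arrays included, so this SE is the same in every comparison. The SD between replicates, pooled over the groups compared, was 0.25 on the log2 scale here and 0.99 between the sites at 16 dpc. Between arrays with the same replicate number the log2 fold change was 1.38 and 1.12. With 1448029_at it was 1.18 ± 0.36 over all arrays, and 1.22 and 1.13 between same-numbered arrays. With 1445757_at it was 1.31 in one and -1.53 in the other, and -0.11 over both. The fit held 10993 genes, those that both arrays of some group called present. Their median log2 fold change was 0.02, and 111 had a higher value than Tbx3. Genes whose 16 dpc ventral arrays all lay above the virgin ventral ones made up 23.8% of all genes, so the lack of overlap alone sets Tbx3 apart little.

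Between the sites at 16 dpc, Tbx3 was the gene with the highest log2 fold change of all 10993, at 5.45 ± 0.52 (median of all genes -0.03). By the means of log2 signals that is 43.7-fold, against a dorsal signal that no array called present. The rank is thus one of fitted values only, for a gene that the study chose partly on this comparison. The log2 fold change was 4.72 (26.3-fold) between the replicate 1 arrays and 6.19 (72.8-fold) between the replicate 2 arrays, and the lowest ventral array stood 19.2-fold above the highest dorsal one. The probe set 1448029_at gave a log2 fold change of 5.50 ± 0.36, with 6.17 and 4.83 between same-numbered arrays, and its lowest ventral array stood 28.5-fold above its highest dorsal one. The weak probe set 1445757_at, measured above background on 1 ventral array only, gave 3.81-fold with its dorsal signals raised to the lowest present signal. That is no strict lower bound, because 16 dpc ventral replicate 2, called absent, entered with its own signal. Of all genes, 13.1% had both ventral arrays above both dorsal arrays.

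The study did not use 16 dpc dorsal or virgin ventral cells as its high group. Between them, Tbx3 was 18.4-fold higher in virgin ventral cells by the means of log2 signals, against a dorsal signal not called present. The difference did not pass the threshold. The log2 fold change was -4.20 ± 0.52 (median of all genes 0.07), and -3.34 and -5.06 between same-numbered arrays, where virgin ventral cells stood 10.1-fold and 33.4-fold higher. In the limma fit the unadjusted p was 2.39e-05 and the Benjamini-Hochberg adjusted p over all genes was 0.0526, against a threshold of 0.05. No gene passed in this comparison, 0 higher (0.0% of all genes) and 0 lower (0.0%), while 799 had an unadjusted p under 0.05. Under scaling by array medians 53 genes passed as higher and 17 as lower, and without 16 dpc dorsal replicate 1 the counts were 9 and 24. The adjusted p was 0.00999 with the replicate number as a block, and 0.00626 where 1448029_at stood for the gene (log2 fold change -4.32). Without virgin ventral replicate 1 it was 0.141, with only that replicate of virgin cells 0.426, and between 0.000121 and 0.0383 without any 1 of the other 4 arrays. The virgin ventral arrays lay above both dorsal arrays, as those of 13.6% of genes did.

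A few other genes stood far apart between dorsal and virgin ventral cells. The simple-epithelium keratin Krt19 read 110 and 282 in virgin ventral cells and 5.29 and 2.82 in dorsal ones (log2 fold change -5.51). The homeobox factor gene Emx2 read 32.9 and 35.7 against 0.822 and 2.77 (-4.36). The dorsal signals of both lay below the lowest signal called present on those arrays, so their log2 fold changes cannot be ranked against that of Tbx3. In the other direction Bex1 read 5389 and 2515 in dorsal against 164 and 141 in virgin ventral cells (4.60). None of the 3 passed the threshold, and they were chosen for their fitted values after these were seen.

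**Figure D2:**
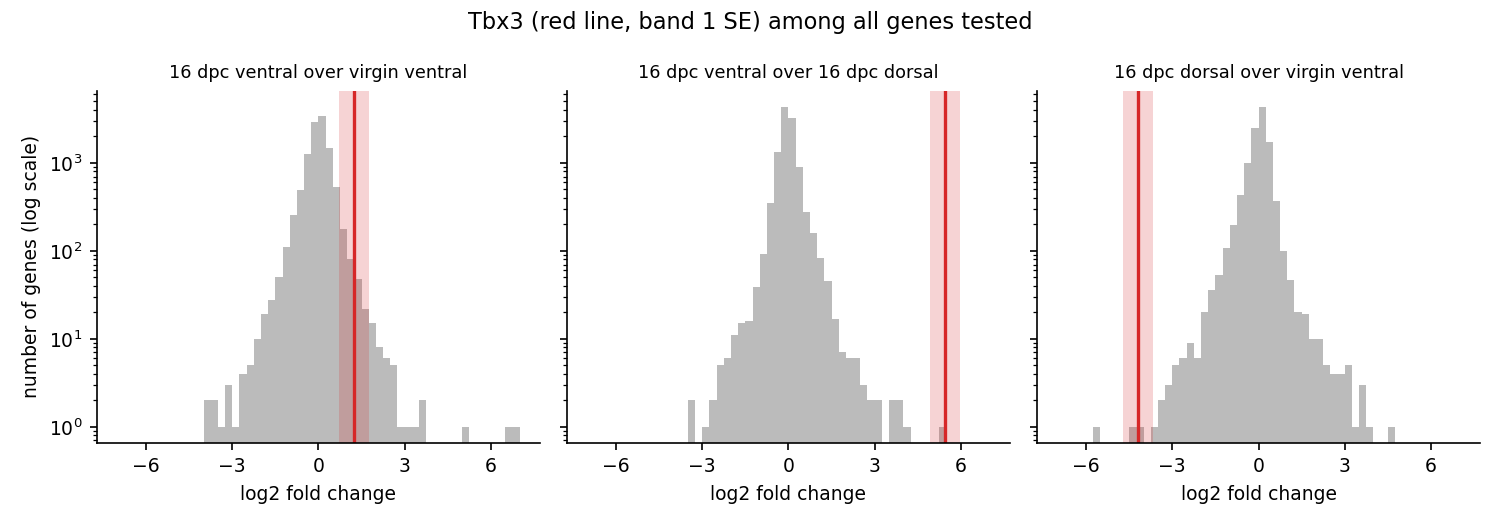
Number of genes (log scale) by log2 fold change in bins of 0.25, over the 10993 genes tested, for each pair of groups; the red line is Tbx3 with a band of 1 SE. Tbx3 lies inside the right flank of the distribution in 16 dpc ventral over virgin ventral cells (1.25), at its right end over dorsal cells (5.45) and near its left end in dorsal over virgin ventral cells (-4.20).

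The arrays of 70 genes, 0.637% of all, lay without overlap in the order seen for Tbx3, from 16 dpc dorsal through virgin ventral to 16 dpc ventral. In 4 of them both steps were at least 2-fold in mean signal on the log2 scale. From dorsal to virgin ventral cells the step of Tbx3 was 4.20 and from there to 16 dpc ventral cells 1.25. Igfbp5, which encodes an insulin-like growth factor binding protein, had steps of 1.50 and 1.43. It read 49.6 and 97.5 in dorsal, 121 and 319 in virgin ventral, and 473 and 587 in 16 dpc ventral cells. The sphingosine-1-phosphate receptor gene S1pr3 had steps of 1.30 and 1.07, with 70.9 and 101, 128 and 339, and 464 and 413 in the same order of groups. Rasef, a gene of the Rab GTPase family, was called present on the 16 dpc ventral arrays only (15.5 and 14.0), and its steps rest on signals not above background. Among the genes fitted here, 54 in 16 dpc ventral cells exceeded each other group more than 2-fold, 44 of them with their 16 dpc ventral arrays above all others. In 19 of the 54 the smaller of both log2 fold changes was higher than the 1.25 of Tbx3. The study's own candidate list was shorter, and its selection was not repeated here. Of the 54 genes, 6 had their arrays in the order of Tbx3.

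The profiles most like that of Tbx3 were found by the root mean square difference of log2 signals over the 6 arrays, each profile centred on its own mean. The median over the 10536 named genes compared was 2.44. The smallest differences were those of Rasef (1.06), Emx2 (1.24), Gadl1 (1.43), Mme (1.44), Pgm5 (1.44), Cd5 (1.49), Btn1a1 (1.49) and Csn3 (1.52). Emx2 shared the low dorsal level but stood at 23.8 and 29.8 in 16 dpc ventral cells, below its virgin ventral level. When each profile was also divided by its range, over 645 genes whose group means differed at least 2-fold and of which the median was 0.44, the smallest differences were those of Gadl1 (0.09), Btn1a1 (0.10), Enah (0.12), Casp1 (0.12), Pyy (0.13), Rasef (0.15), Hcn2 (0.15) and Aspa (0.16).

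Gadl1, Btn1a1 and Rasef were named by both measures, Rasef with 4 of its 6 signals not called present. Gadl1 encodes a decarboxylase that makes β-alanine, and it read 192 and 134 in dorsal, 602 and 384 in virgin ventral, and 798 and 887 in 16 dpc ventral cells. Btn1a1 encodes butyrophilin, a membrane protein of the milk fat globule, and it read 16.0 and 7.07, 28.0 and 23.5, and 45.4 and 52.3 in the same groups. Both dorsal arrays and virgin ventral replicate 2 called Btn1a1 absent, so its steps rest partly on signals not above background. Pyy, the gene of the peptide YY, read 1393 and 1388, 2571 and 2199, and 3896 and 3349. These genes follow the order of Tbx3 with smaller steps, the log2 fold change between sites at 16 dpc being 2.39 for Gadl1, 2.20 for Btn1a1 and 1.38 for Pyy. The 6 values of a profile come from the same 6 arrays for every gene, so arrays that deviate as a whole enter each likeness.

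**Figure D3:**
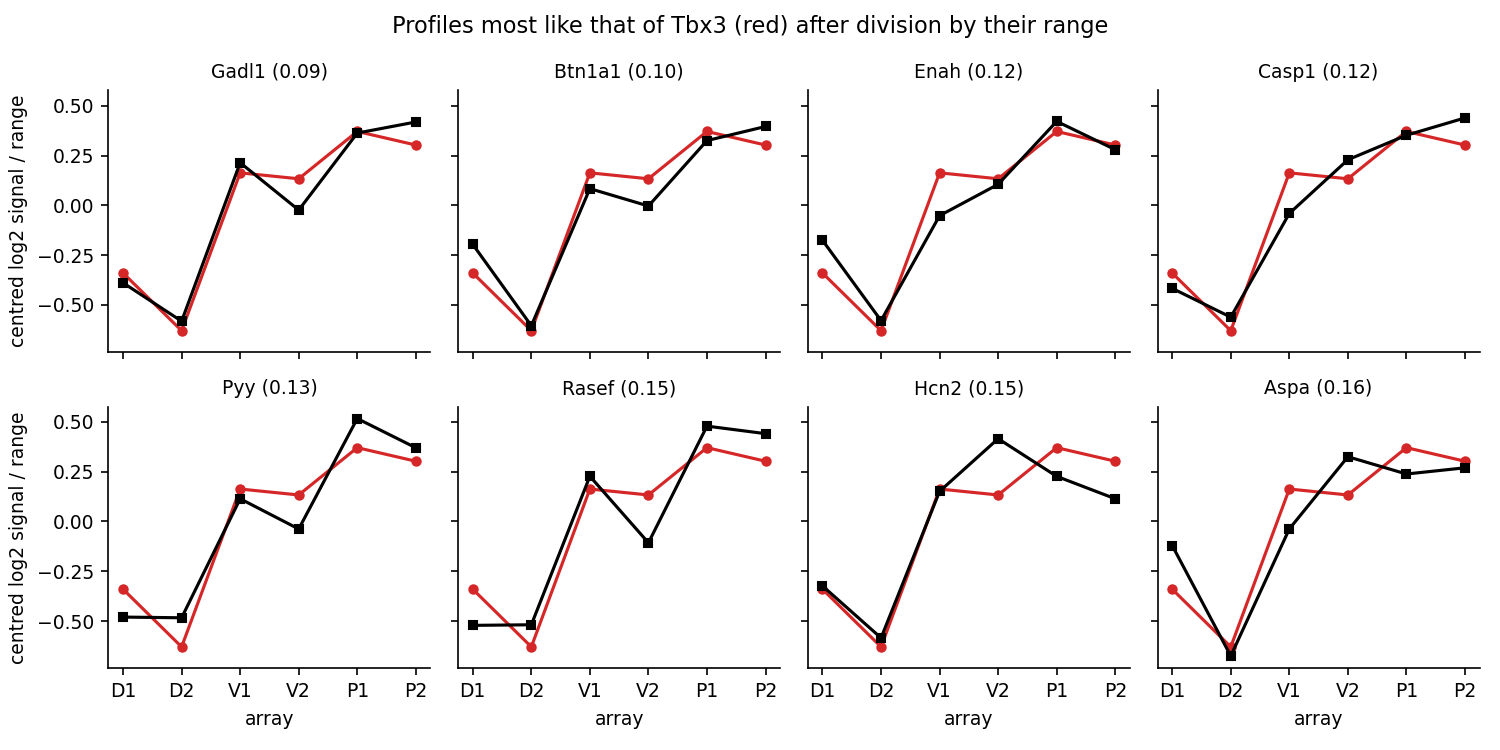
Log2 signal of Tbx3 (red) and of the 8 genes with the most similar profile (black) on the 6 arrays, centred on its mean and divided by its range; D are 16 dpc dorsal, V virgin ventral and P 16 dpc ventral arrays, with the replicate number, and the root mean square difference is in brackets. The first 6 genes, from Gadl1 (0.09) to Rasef (0.15), keep the order of Tbx3, while Hcn2 (0.15) and Aspa (0.16) do not.

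Of the 16 other T-box genes, 14 had a probe set of their own, 4 were present on both arrays of some group and 10 were present on no array. The share of all genes called by the limma fit, beside which counts of called genes are to be read, was 0.136% higher and 0.0637% lower in 16 dpc ventral over virgin ventral cells, and 0.0455% higher and 0.0364% lower in 16 dpc ventral over 16 dpc dorsal cells. Of the 4 T-box genes tested, 0 passed in any of the 3 comparisons, and 1 of them had an unadjusted p under 0.05 in 16 dpc dorsal over virgin ventral cells. That gene was Tbx1, a factor of pharyngeal development that is also known in hair follicle stem cells. It read 121 and 542 in virgin ventral, 101 and 79.3 in 16 dpc dorsal, and 223 and 174 in 16 dpc ventral cells, with a log2 fold change of 1.14 ± 0.59 between sites (adjusted p = 1.0 in limma). Its dorsal arrays lay below all ventral ones, as those of Tbx3 did, and its 16 dpc ventral arrays lay between its virgin ventral ones.

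Mga, a large protein that joins a T-box to a MAX-binding domain, stood between 820 and 1143 on all arrays (log2 fold change -0.08 ± 0.20 over virgin ventral cells). Tbx6 stood between 35.6 and 67.4 and Tbx19 between 49.5 and 91.1. The genes present on no array were Tbx2, Tbx4, Tbx5, Tbx15, Tbx18, Tbx20, Tbx21, Tbx22, Eomes and Tbr1. Tbx2, the closest relative of Tbx3 and its partner in mammary and limb development, read at most 12.2 on any array. Tbx5, its neighbour on the chromosome, read at most 48.3. Tbx3 was the only T-box gene whose arrays lay in the order described above.

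**Figure D4:**
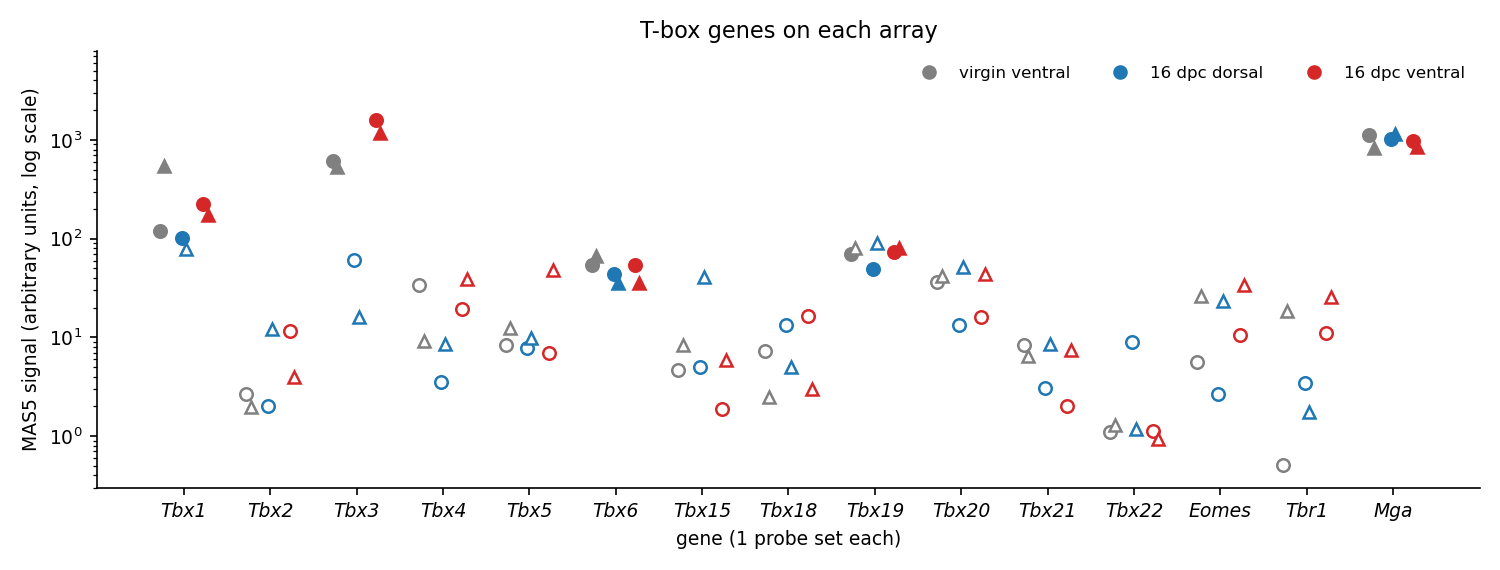
MAS5 signal (log scale) of Tbx3 and the 14 other T-box genes on the array, 1 probe set each; groups are coloured grey (virgin ventral), blue (dorsal at 16 dpc) and red (ventral at 16 dpc), circles are replicate 1, triangles replicate 2, and filled symbols are called present. Levels of different probe sets are not comparable with each other. The Tbx3 arrays fall into 3 separate levels, whereas the 16 dpc ventral arrays of Tbx1 (223 and 174) lie between its virgin ventral arrays (121 and 542).

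The regulators of the mammary line and placode are genes with which Tbx3 acts in the embryo. Of 28 such genes, 27 were on the array and 19 were tested, and 0 passed in any comparison. In limma 1 had an unadjusted p under 0.05 over virgin ventral, 0 over dorsal and 2 in dorsal over virgin ventral cells. Among all genes tested, 1280 (11.6%), 559 (5.09%) and 799 (7.27%) had such a p in these 3 comparisons, and the counts for each list are to be read beside these shares. Their median log2 fold change was -0.14 in 16 dpc ventral over virgin ventral and -0.06 over dorsal cells. Sostdc1, a secreted inhibitor of BMP and Wnt signals, read 7850 and 9364 in virgin ventral, 5602 and 5332 in dorsal, and 5882 and 4276 in 16 dpc ventral cells (-0.77 ± 0.19 over virgin ventral on the log2 scale, adjusted p = 0.210). Lef1, a transcription factor of the Wnt pathway, read 53.3 and 98.1 in virgin ventral cells and was not called present in 16 dpc ventral cells, where it read 36.1 and 27.6. Gli2, a Hedgehog transcription factor, read 207 and 230 in virgin ventral, 134 and 135 in dorsal, and 261 and 168 in 16 dpc ventral cells (0.64 ± 0.30 between sites, adjusted p = 1.0). The ligand genes Wnt10b and Fgf10 and the receptor gene Erbb4 were absent on all arrays.

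Genes reported as targets of the TBX3 protein gave 7 tested of 12, with 0 past the threshold in any comparison (unadjusted p under 0.05 in limma for 2 over virgin ventral, 0 over dorsal and 1 in dorsal over virgin ventral cells). Their median log2 fold change was -0.36 over virgin ventral and -0.22 over dorsal cells, and 6 of the 7 had a lower mean in 16 dpc ventral cells than in virgin ventral ones. In dorsal over virgin ventral cells, where Tbx3 was lower, the median was -0.19 and 5 of the 7 had a lower mean. A part of Tbx3 in these levels was not tested. Ndrg1, a differentiation and stress gene, read 2844 and 3732 in virgin ventral and 2152 and 1956 in 16 dpc ventral cells (-0.67 ± 0.17, adjusted p = 0.229). The cell-cycle inhibitor gene Cdkn1b read 2145 and 2486 against 1788 and 1745 (-0.39 ± 0.15, adjusted p = 0.392). The related Cdkn1a read 10074 and 9371 against 6446 and 8871 (-0.36 ± 0.18, adjusted p = 0.483). For the E-cadherin gene Cdh1 the log2 fold change was -0.18 ± 0.20. Cdkn2a, the senescence gene best known as a target, was absent on all arrays.

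Of the 10 genes reported to encode partners of TBX3, all were tested and 0 passed in limma, with medians of 0.01 and -0.04, while 1 had an unadjusted p under 0.05 over virgin ventral cells. The Wnt co-activator gene Bcl9l read 1873 and 1973 in virgin ventral and 1329 and 774 in 16 dpc ventral cells (-0.92 ± 0.38, adjusted p = 0.397), and 1372 and 586 in dorsal cells. Its relative Bcl9 had a log2 fold change of -0.44 ± 0.28. The histone deacetylase genes Hdac1, Hdac2 and Hdac3 had values of 0.11, 0.13 and 0.09. In the TGF-beta and BMP pathways 24 of 26 genes were tested and 0 passed in limma (medians 0.02 and -0.09, unadjusted p under 0.05 for 1 gene between sites). The helix-loop-helix factor gene Id2, a BMP target, read 1158 and 1121 in virgin ventral, 1114 and 890 in dorsal, and 1449 and 1396 in 16 dpc ventral cells (0.52 ± 0.17 between sites, adjusted p = 0.766). Smad4, which encodes the co-Smad shared by both pathways, had a log2 fold change of -0.31 ± 0.14 over virgin ventral cells (adjusted p = 0.451).

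Few genes of dorsoventral and limb-flank identity were measurable. Of 29 genes, 25 were on the array, 13 were present on no array by any probe set and 6 were tested, with 0 past the threshold in limma and 1 with an unadjusted p under 0.05 over virgin ventral cells. The homeobox gene Meis1 read 453 and 361 in virgin ventral, 691 and 874 in dorsal, and 646 and 946 in 16 dpc ventral cells (0.95 ± 0.24 over virgin ventral, adjusted p = 0.230). The homeobox gene Prrx1 read 27.3 and 8.15 in virgin ventral cells, absent on both arrays, 33.3 and 49.2 in dorsal, and 38.7 and 38.2 in 16 dpc ventral cells. Tbx15 and En1, which mark dorsal skin and ventral limb ectoderm in the embryo, were absent throughout. Isl1, a homeobox factor of the hindlimb field, was likewise called absent on every array, although it read 69.6 and 134 in virgin ventral and 56.9 and 113 in 16 dpc ventral cells against 2.24 and 2.86 in dorsal ones. Isl1 is singled out here after its values were seen. Of the 8 nearest protein-coding neighbours of Tbx3 in the RefSeq gene order, 3 were tested (Spring1, Med13l and Rbm19), and 0 passed.

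The other genes that the study names with Tbx3 were chosen on these arrays or in the same skin. Their direction, calls and p-values in the comparisons with 16 dpc ventral cells are therefore no independent evidence. Of 12 such genes, 11 were tested, 2 were called higher in 16 dpc ventral over virgin ventral cells and 2 over dorsal cells. The glycoprotein gene Thy1 read 402 and 457 in virgin ventral, 1347 and 2235 in dorsal, and 3086 and 4216 in 16 dpc ventral cells (3.07 ± 0.26 over virgin ventral, limma adjusted p = 0.0104). Unlike Tbx3, Thy1 stood higher in dorsal than in virgin ventral cells (2.02 ± 0.26, adjusted p = 0.0526). The transglutaminase gene Tgm3 read 2036 and 1940, 1464 and 964, and 5648 and 6036 in the same groups (1.55 ± 0.20 over virgin ventral, adjusted p = 0.0317, and 2.30 ± 0.20 between sites, adjusted p = 0.0152). The keratin gene Krt2 read 386 and 484, 306 and 207, and 1899 and 1252 (2.62 ± 0.28 between sites, adjusted p = 0.0188, and 1.83 ± 0.28 over virgin ventral, adjusted p = 0.0517). The calls over virgin ventral cells numbered 0 without virgin ventral replicate 2 and 1 without the other virgin ventral array or either 16 dpc ventral array, and those over dorsal cells 0 without either virgin ventral array or 16 dpc ventral replicate 1. In Tgm3, Krt2 and Stfa3, a stefin gene, the means had the same order as in Tbx3, with the dorsal mean 0.74, 0.78 and 1.38 below that of virgin ventral cells on the log2 scale, against 4.20 for Tbx3.

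Tfrc, which encodes the transferrin receptor CD71, and the Wnt target gene Axin2 did not pass in any comparison. Tfrc read 1477 and 2038 in virgin ventral, 1670 and 2349 in dorsal, and 2077 and 1824 in 16 dpc ventral cells. Axin2 read 1621 and 1613, 1610 and 1721, and 1156 and 1488. The arrays of Tfrc overlapped between all groups, and those of Axin2 were lowest in 16 dpc ventral cells (-0.30 ± 0.17 over virgin ventral, adjusted p = 0.538).

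**Figure D5:**
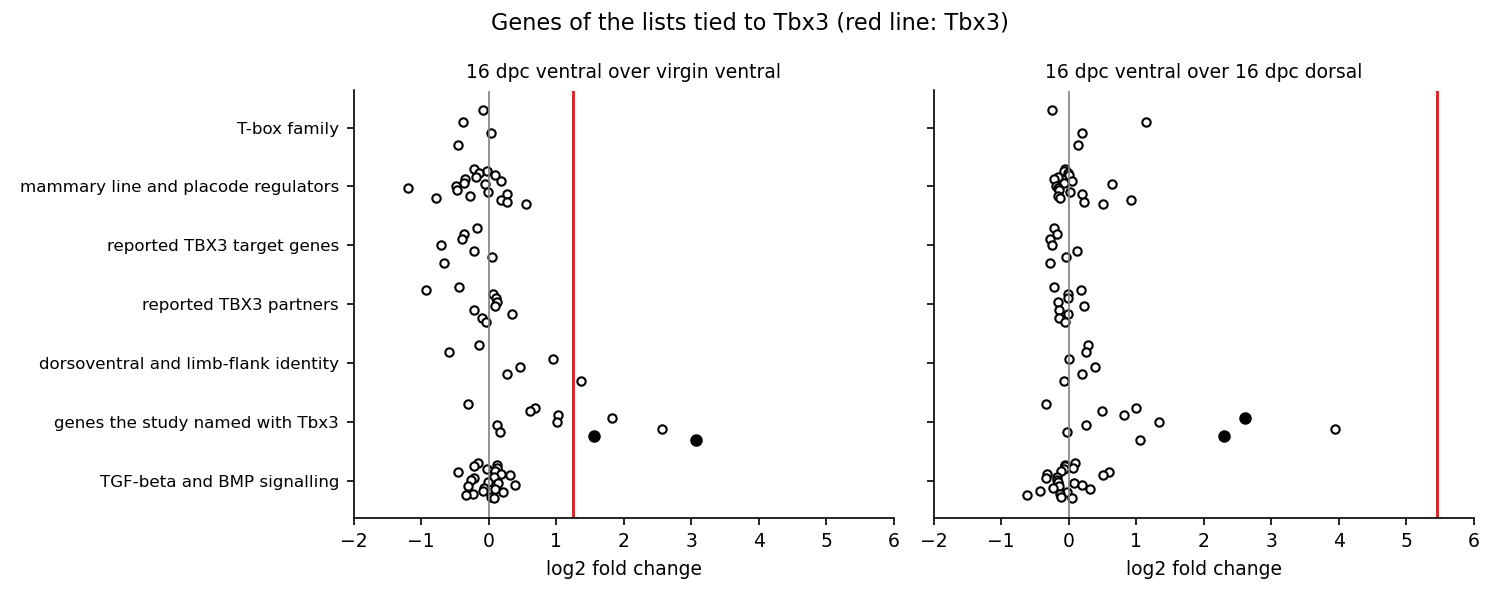
Log2 fold change of each tested gene in the 7 lists tied to Tbx3, in 16 dpc ventral over virgin ventral (left) and over 16 dpc dorsal cells (right); each point is a gene, filled points have an adjusted p under 0.05 in limma, and the red line is Tbx3. The filled points are Thy1 and Tgm3 on the left and Tgm3 and Krt2 on the right, all in the list named by the study, and no listed gene reaches the 5.45 of Tbx3 between sites.

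The basal cell label was checked against markers, and all 12 basal keratinocyte markers on the array, among them Krt5, Krt14, Itga6 and Trp63, were present on every array, with medians of -0.03 and -0.09. The members with the smallest p were the integrin genes Itgb1 (log2 fold change 0.73 ± 0.21 over virgin ventral cells, adjusted p = 0.256) and Itga3 (-0.36 ± 0.18, adjusted p = 0.473). Of 20 mammary epithelium markers 18 were on the array and 11 were tested, and 0 passed in any comparison, while 8 had an unadjusted p under 0.05 over virgin ventral, 5 over dorsal and 4 in dorsal over virgin ventral cells. Their summed signal was 5585 and 8939 in virgin ventral, 6287 and 6288 in dorsal, and 13606 and 5443 in 16 dpc ventral cells. The luminal keratin genes Krt8, Krt18 and Krt19 were highest in virgin ventral cells, where Krt8 read 220 and 474 against 104 and 9.98 in 16 dpc ventral cells. Krt18 read 161 and 413 in virgin ventral, 17.8 and 24.2 in dorsal, and 94.3 and 47.6 in 16 dpc ventral cells. Krt19 read 110 and 282, 5.29 and 2.82, and 46.2 and 9.71 in these groups, and was called present in virgin ventral cells only. The milk protein gene Csn2 read 172 and 2.29 in virgin ventral, 204 and 348 in dorsal, and 6185 and 699 in 16 dpc ventral cells. The milk protein gene Csn1s1 read 64.6 and 26.5, 94.2 and 125, and 1031 and 186 in these groups (3.40 ± 0.73 over virgin ventral, adjusted p = 0.148). Csn3 read 79.4 and 129, 26.3 and 39.9, and 646 and 112 (3.06 ± 0.72 between sites, adjusted p = 0.406). Both were highest on replicate 1 of the 16 dpc ventral cells, as Csn2 was. The estrogen receptor gene Esr1 read 393 and 439 in virgin ventral, 567 and 528 in dorsal, and 830 and 800 in 16 dpc ventral cells (0.97 ± 0.18 over virgin ventral, adjusted p = 0.107, and 0.57 ± 0.18 between sites, adjusted p = 0.745). Lalba, another milk protein gene, was absent throughout. Of these mammary markers, Krt18, Krt19 and Csn3 had their dorsal arrays below all ventral ones, as Tbx3 did, and Krt8, Csn1s1, Csn2 and Esr1 did not. On the 16 dpc ventral arrays Tbx3 read 1593 beside the higher and 1164 beside the lower Csn2. Tbx3 is itself expressed in mammary epithelium, and the part of such cells in its level was not tested.

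All 10 hair follicle bulge markers were tested. Their summed signal was 10936 and 17238 in virgin ventral, 11556 and 13750 in dorsal, and 12580 and 12562 in 16 dpc ventral cells. Cd34 read 85.4 and 391, 68.4 and 53.4, and 333 and 184 in these groups, and Lhx2 read 223 and 662, 181 and 100, and 423 and 243, so both had their dorsal arrays below all ventral ones, as Tbx3 did (2.03 ± 0.63 and 1.25 ± 0.52 between sites, adjusted p = 0.715 and 0.935). Postn, the gene of the matrix protein periostin, read 2616 and 4130, 1351 and 2166, and 2657 and 2837 (0.68 ± 0.27 between sites, adjusted p = 0.891). Lgr6, a receptor for R-spondins, was called lower in 16 dpc ventral than in dorsal cells, at 788 and 903 against 2778 and 3880 (-1.96 ± 0.20, adjusted p = 0.0152). Of 12 immune markers 9 were tested, and Csf1r was called higher in 16 dpc ventral (1190 and 958) than in virgin ventral cells (399 and 250, adjusted p = 0.0406), while it read 1114 and 956 in dorsal cells. The summed immune signal was 3954 and 2671 in virgin ventral, 7533 and 7039 in dorsal, and 7876 and 5483 in 16 dpc ventral cells, which is not the order of Tbx3.

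Among markers of the dermis and of other cells none passed the threshold. Of 15 fibroblast markers 6 were tested, and Lum, Pdgfra and Pdgfrb were present on no array. The summed signal of the 14 on the array was 2942 and 3906 in virgin ventral, 3239 and 3188 in dorsal, and 4193 and 4290 in 16 dpc ventral cells, where both arrays were the highest. The vimentin gene Vim read 462 and 396, 761 and 721, and 1077 and 746 in these groups (1.07 ± 0.22 over virgin ventral, adjusted p = 0.135). The matrix gene Sparc read 1609 and 2158, 1560 and 1159, and 2072 and 2268 (0.69 ± 0.21 between sites, adjusted p = 0.647), and the collagen gene Col6a1 had a log2 fold change of 0.98 ± 0.44 over virgin ventral cells (adjusted p = 0.439). Of 12 endothelial, pericyte and smooth muscle markers 3 were tested, of 10 melanocyte markers 2, of 9 sebaceous markers 5 and of 7 adipocyte markers 1, with Pecam1, Cdh5, Mlana, Adipoq and Cidec absent throughout. The part of any of these cells in the Tbx3 level was not tested. In sorted bulk RNA a smaller number of Tbx3-positive cells and less Tbx3 RNA per cell cannot be told apart.

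The 6 arrays called 47.2% to 53.3% of probe sets present, and the median signal was 61.1 to 78.9. The ratio of 3′ to 5′ signal of the actin control, which rises as RNA or its copies get shorter, was 4.47 and 3.90 on the replicate 2 arrays of 16 dpc dorsal and ventral cells and 1.78 to 2.46 on the other 4. Within replicate 1, where the 3 ratios were 2.46, 2.04 and 1.78, the order of Tbx3 was the same as within replicate 2, with 1437479_x_at and with 1448029_at.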

How the data were processed

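RNA of sorted epidermal basal cells was measured on 6 Affymetrix mouse 3′ expression arrays, 2 in each of 3 groups taken from the sample labels. The deposited files hold a linear intensity and a detection call for each probe set. Affymetrix Expression Console version 1 is named in the submitters' processing notes. The deposited intensity has a mean of 500.003 on each array after trimming 2% at each end, so a change of total RNA per cell cannot be seen. No positions are printed, the build being not given in the sources used here.

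The log2 signal was used, with a floor of 1 on the signal. Probe sets naming 1 gene numbered 34945 (several genes 932, none 9160, 64 controls), and a gene was read from its probe set of highest mean log2 signal (18193 genes). The 10993 genes that both arrays of some group called present were fitted with limma 3.58.1 in R 4.3.3 (lmFit, eBayes with trend, all 6 arrays, 3 residual and 5.789 prior degrees of freedom), and p-values, two-sided, were adjusted over all of them by Benjamini-Hochberg, with 0.05 as the threshold. SEs given for 1448029_at come from a separate fit of the same model over probe sets, in which the SE of 1437479_x_at was 0.57. For 1445757_at, which no dorsal array called present, the fold between sites was limited on the dorsal side only: each dorsal array entered with the higher of its own signal and the lowest present signal. Ventral arrays entered with their own signal, so the fold is no strict lower bound. The script was tested on simulated data. Tbx3 and the gene lists were chosen with earlier results of these data known.

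Genes named are Tbx3, the T-box family, from each list 2 to 4 members by smallest p in a comparison with 16 dpc ventral cells and all members past the threshold (of the immune list only the latter, and of the endothelial, melanocyte, sebaceous and adipocyte lists counts only), and 8 genes by each measure of likeness. Predicted genes were not named. Cdh1, Hdac1 to Hdac3, Thy1 in dorsal cells, Tfrc, Axin2, Krt8, Krt18, Krt19, Csn2, Lhx2, Col6a1, Isl1, Bex1 and absent genes are named outside this rule. Replicate numbers come from the labels. Same-numbered arrays share a prefix in the file headers whose meaning is not given, and no label says that the numbers pair samples. The main fit therefore does not pair them. Their deviations from the group means correlated at 0.029 (virgin ventral and 16 dpc dorsal), 0.0069 (virgin ventral and 16 dpc ventral) and 0.448 (both 16 dpc groups). The 16 dpc arrays of the same number thus deviated partly together, which the SE between sites in the main fit does not take into account. The alternatives tried are other probe sets, floors, scalings and filters, no trend, 4 arrays, a replicate block and leaving out each array.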

Additional observations from a re-analysis of the deposited data

How the results depend on the processing

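The log2 fold change of Tbx3 in 16 dpc ventral over virgin ventral cells had the same direction under 16 of 18 alternatives, and turned to -0.11 with the weak probe set 1445757_at and to -0.073 with the mean of all 5 probe sets. Leaving out 1 array gave 1.03 to 1.48. The floor of 16, no filter, no trend, 4 arrays, the replicate block and leaving out a dorsal array left it at 1.25. These settings do not alter the difference between these group means. Probe sets with plain names only repeated the value of 1448029_at. The counts of alternatives, also in the other comparisons, thus include settings that could not alter the log2 fold change. Over 16 dpc dorsal cells the log2 fold change kept its direction under all 18, moved to 3.27 with the mean of all probe sets, and was 4.49 to 6.41 with 1 array left out. In dorsal over virgin ventral cells it was negative under all 18 and past the threshold under 10. These were 1448029_at (-4.32), probe sets with plain names only (-4.32, adjusted p = 0.00802), log2 of the signal plus 16 (-3.57, adjusted p = 0.0315), scaling by array medians (-4.02, adjusted p = 8.75e-07), the 4 arrays compared (-4.20, adjusted p = 0.0390), the replicate block (-4.20, adjusted p = 0.00999) and 4 of the 6 fits with 1 array left out (-5.16 to -3.24 over the 6). The cause was not tested. Tbx3 kept its order among the groups under quantile normalization and scaling by medians, and lost it where its probe sets were averaged. The number of genes in that order was 70, and 53 to 77 under these 3. The requirement of presence on all 6 arrays left no value for Tbx3, which that filter removes.

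Genes of the 7 lists called higher in 16 dpc ventral over virgin ventral cells numbered 2, but 1 with the mean of all probe sets, 6 with scaling by medians, 0 without trend, 5 with the replicate block and 0 to 4 with 1 array left out. Over dorsal cells they numbered 2, but 0 with the mean of probe sets, without trend or with 4 arrays, 4 with scaling by medians, 4 with the replicate block and 0 to 3 with 1 array left out. In dorsal over virgin ventral cells 0 passed, and 1, with log2 of the signal plus 16, quantile normalization, scaling by medians, presence on all 6 arrays, 4 arrays or the block, and 0 to 1 with 1 array left out. No listed gene was called lower under any alternative. Apart from Meis1 under scaling by medians, the genes called higher were all of the list named by the study. That list was chosen on these arrays or in the same skin, so these counts are no independent evidence. Scaling by medians moved the median of all genes by 0.20 in 16 dpc ventral and by 0.18 in dorsal over virgin ventral cells, and raised the prior degrees of freedom to 23.54. Calls in the 2 comparisons with 16 dpc ventral cells were then 149 higher and 39 lower, against 15 and 7, over virgin ventral cells, and 24 higher and 10 lower, against 5 and 4, over dorsal cells, and in dorsal over virgin ventral cells 53 higher and 17 lower, against 0 and 0.

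With 2 arrays a group the errors are wide. Weak probe sets near the lowest present signal of 6.34 to 11.3 carry no order, and dorsal Tbx3 was not called present.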
